A study of Mus musculus with 8 samples.

Results

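The genes described here encode the machinery that builds ribosomes: 60 mouse genes in 5 roles, of which 10 serve RNA polymerase I, 8 belong to small nucleolar ribonucleoproteins (snoRNPs), 17 act on the small ribosomal subunit, 22 on the large subunit and 3 at several nucleolar steps. They were chosen by their known function, and each was read from the probe with the highest mean signal among those well above background on at least 4 of 8 arrays, whatever the group. That choice selected on signal over all 8 arrays and not on the difference between groups, but the list was drawn up with earlier results of these data known. All 60 were measured, among 24921 genes and transcripts tested. Of the 60, 59 were well above background on all 8 arrays, and Taf1b was the member nearest to the limit, with 3 furan and 3 vehicle arrays.

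The furan group held 4 female B6C3F1 mice, replicates 41, 42, 43 and 44, gavaged for 21 days with corn oil that carried 8 mg furan per kg body weight. The vehicle group held 4 female mice of the same cross, replicates 2, 3, 4 and 6, gavaged with corn oil alone. All were bought at 5 to 6 weeks of age, and livers were snap frozen 4 hours after dosing ended. RNA from each liver was labelled in 1 colour and hybridised to 1 of 8 Agilent arrays on 1 slide. Furan, a volatile ring compound that arises during the heating of food, is known to damage the liver of rodents.

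Ribosomes are assembled mainly in the nucleolus. RNA polymerase I transcribes the ribosomal DNA into a long precursor, snoRNPs guide its chemical modification and part of its cleavage, and large sets of assembly factors then fold, cut and export the small and large subunits. The factors join and leave in a set order and are not part of the finished ribosome. In liver the pathway is known to be active when hepatocytes grow or re-enter the cell cycle, as after partial hepatectomy.

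A level is the log2 signal less the 75th percentile of all probe spots on that array, and a change is the furan mean less the vehicle mean. In limma with Benjamini-Hochberg adjustment over all tested features, 14 of the 60 members were higher in furan livers at an adjusted p under 0.05 and 0 were lower. Across all features 2.87% were called higher and 1.31% lower. At an unadjusted p under 0.05, 35 members were higher and 0 lower, where 12.3% of all features were higher. The change was positive for 54 members, and its median was 0.37 on the log2 scale, against -0.092 over all features and -0.0091 over those with a gene symbol. Of the 60, 34 had every furan array above every vehicle array and 0 had every furan array below, where 10.8% of all features lay wholly above. In 11 members the change reached 1.5-fold. The members' median exceeded that of all features by 0.46 as reported, by 0.29 with quantile normalization, by 0.26 with normexp and quantile normalization and by 0.32 in the authors' deposited table. Shifting each array to its median in place of its 75th percentile moves all features of an array alike, so that difference stays as it is by construction, and it put the median of all features at 0.39 and that of the members at 0.86. The sign of small changes therefore depends on the shift: Taf1a, Taf1b, Noc3l, Taf1d, Ubtf and Npm1, which were negative here, were positive with the median shift. Vehicle replicate 2 had a median intensity of 130, against 32.5 to 48.2 on the other arrays. Its 75th percentile was 460, within the 337 to 477 of the others. The part of this 1 array in the median-shift result was not tested. With the median shift 0 members passed, where 0.341% of all features were called higher. With the slide column as a block 0 members passed either, and 0 of all features were called. A change in the number of cells of a type and a change in RNA per cell cannot be told apart in whole liver.

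**Figure D1:**
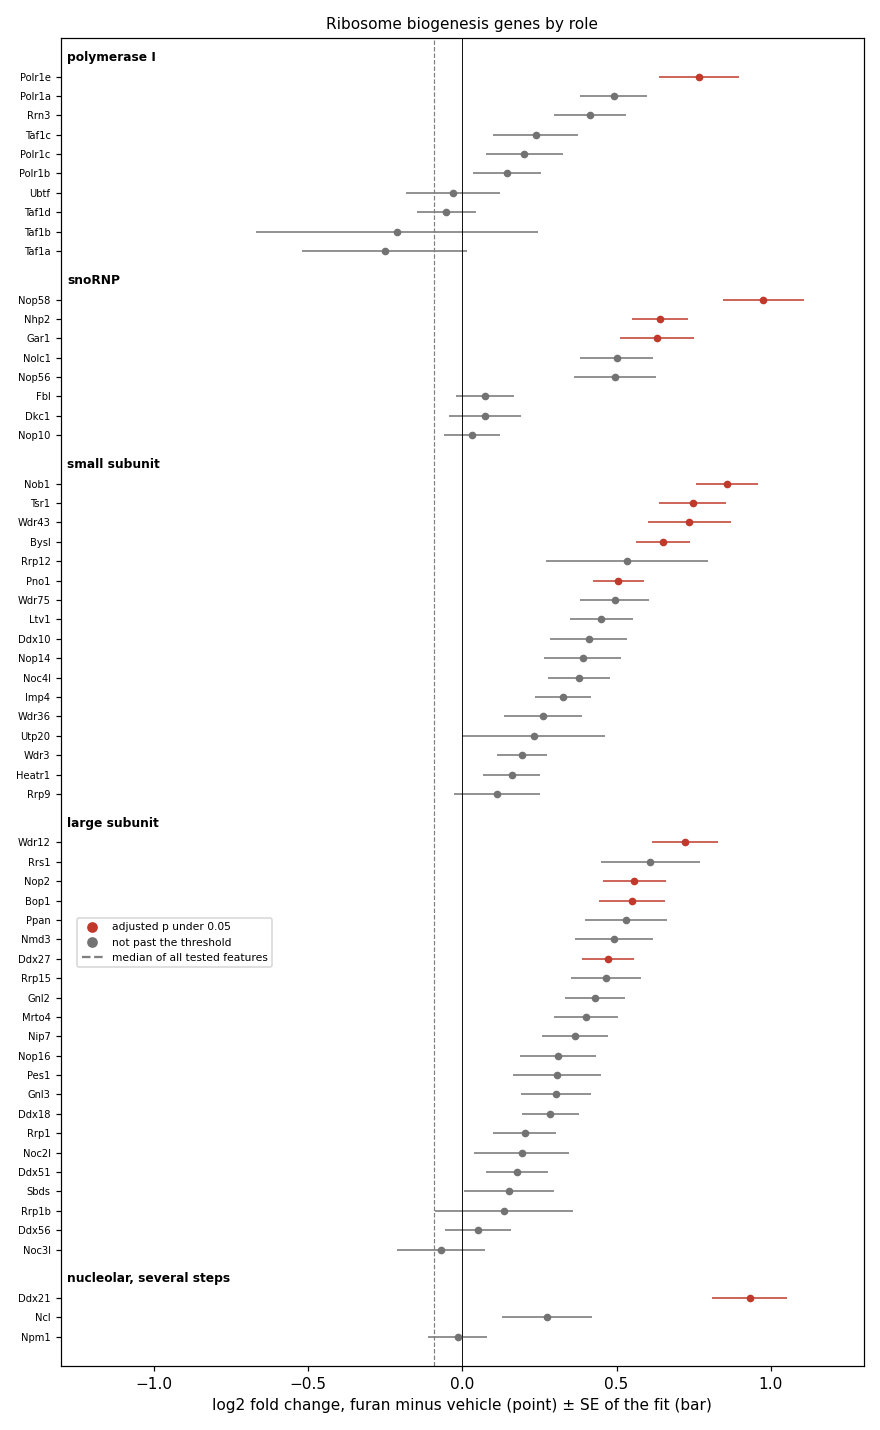
Log2 fold change of each member, furan minus vehicle (points), with the standard error of the limma fit (bars), grouped by role and ordered by size within a role. Members past an adjusted p of 0.05 are red, and the dashed line marks the median of all tested features, -0.092. The largest change was 0.98 (Nop58) and the lowest -0.25 (Taf1a, 0.23 with a median shift of the arrays).

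Members called are given by role, where 2.87% of all features were called higher. The difference between roles was not tested. The snoRNP role had 3 of 8 members called higher and a median change of 0.50. The small-subunit role had 5 of 17 called, all 17 changes positive and a median of 0.41. The large-subunit role had 4 of 22 called, 21 changes positive and a median of 0.34. The polymerase I role had 1 of 10 called, 6 changes positive and a median of 0.17, and the 3 genes of several steps had 1 call and a median of 0.27. The negative Taf1a, Taf1b and Taf1d changes became 0.25, 0.38 and 0.055 with quantile normalization and 0.062, 0.11 and 0.047 in the authors' deposited table. In that table the polymerase I, snoRNP, small-subunit, large-subunit and several-step medians were 0.14, 0.43, 0.39, 0.27 and 0.18. The members called there were 2, 4, 9, 8 and 1 in that order, where 4.45% of all features were called higher.

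The same order of roles was not seen on each array. The median over the 10 polymerase I genes, relative to the vehicle mean of each gene, was 0.19, 0.031, 0.29 and 0.19 on the furan arrays, against 0.030, 0.079, -0.14 and 0.090 on the vehicle arrays. These groups overlapped. The snoRNP median was 0.49, 0.56, 0.41 and 0.41 on the furan arrays, against 0.023, -0.023, -0.095 and 0.12 on the vehicle arrays. The small-subunit median was 0.54, 0.32, 0.49 and 0.34 on the furan arrays, against -0.10, 0.091, -0.044 and 0.044 on the vehicle arrays. The large-subunit median was 0.45, 0.29, 0.43 and 0.33 on the furan arrays, against -0.15, 0.083, -0.0079 and 0.067 on the vehicle arrays. The median of the 3 genes of several steps was 0.39, 0.16, 0.19 and 0.35 on the furan arrays, against -0.23, 0.065, 0.0017 and 0.13 on the vehicle arrays. In these roles other than polymerase I every furan array lay above every vehicle array. The zero of this scale is the vehicle mean, and no test was made on these medians.

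**Figure D2:**
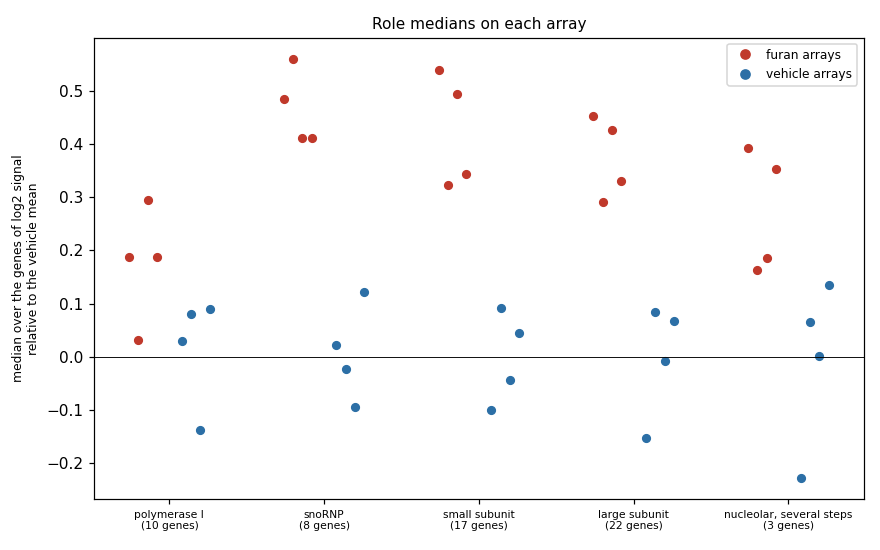
Median over the genes of a role of the log2 signal relative to each gene's vehicle mean, 1 point per array, with furan arrays (red) left of vehicle arrays (blue). The furan points of the snoRNP, small-subunit and large-subunit roles lie between 0.29 and 0.56 and above all vehicle points of the role, while those of the polymerase I role start at 0.031.

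Promoter windows of 300 bases, 250 before to 50 after a gene's annotated start, were matched by symbol in RefSeq (GRCm38.p6) for 52 of the 60 members, 13 of them called. Bop1, Fbl, Gnl2, Npm1, Rrp12, Rrs1, Sbds and Wdr36 were not matched. In all, 10 motifs were searched on both strands, and the sequences shown are those of the called members that hold the E-box CACGTG, with Nob1 and Ddx21, which passed in every fit that left out 1 array. Capitals mark CACGTG and CCGGAAG, an ETS-type core, and the Nob1 and Ddx21 windows hold neither. The windows are Nop2 at chr6:125131633-125131932 (plus strand), Tsr1 at chr11:74897830-74898129 (plus), Pno1 at chr11:17211540-17211839 (minus), Wdr43 at chr17:71615965-71616264 (plus), Nob1 at chr8:107424989-107425288 (minus) and Ddx21 at chr10:62602249-62602548 (minus), each written 5′ to 3′ on the gene's strand.
Nop2: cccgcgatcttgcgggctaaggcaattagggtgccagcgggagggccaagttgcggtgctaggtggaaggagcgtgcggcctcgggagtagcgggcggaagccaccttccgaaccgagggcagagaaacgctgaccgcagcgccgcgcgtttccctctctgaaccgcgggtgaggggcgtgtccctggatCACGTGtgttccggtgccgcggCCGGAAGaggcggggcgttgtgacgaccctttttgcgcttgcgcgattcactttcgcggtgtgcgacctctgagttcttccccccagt
Tsr1: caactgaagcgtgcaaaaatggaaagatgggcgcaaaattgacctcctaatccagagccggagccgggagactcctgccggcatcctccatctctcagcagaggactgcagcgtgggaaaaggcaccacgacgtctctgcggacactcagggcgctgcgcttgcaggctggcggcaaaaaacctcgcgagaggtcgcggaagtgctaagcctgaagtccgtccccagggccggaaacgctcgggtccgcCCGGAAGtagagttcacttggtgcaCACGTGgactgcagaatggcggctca
Pno1: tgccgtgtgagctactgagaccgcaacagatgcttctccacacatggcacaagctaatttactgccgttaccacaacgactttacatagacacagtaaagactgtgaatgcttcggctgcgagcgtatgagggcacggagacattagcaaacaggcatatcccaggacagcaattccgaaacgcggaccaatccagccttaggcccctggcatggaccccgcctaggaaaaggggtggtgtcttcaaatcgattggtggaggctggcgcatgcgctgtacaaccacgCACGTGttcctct
Wdr43: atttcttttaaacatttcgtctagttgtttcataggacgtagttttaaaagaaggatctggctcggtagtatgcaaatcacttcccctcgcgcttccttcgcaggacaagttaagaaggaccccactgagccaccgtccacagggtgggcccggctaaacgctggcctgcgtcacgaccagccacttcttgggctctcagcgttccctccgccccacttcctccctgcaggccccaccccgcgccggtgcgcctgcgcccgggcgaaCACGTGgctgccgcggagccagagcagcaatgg
Nob1: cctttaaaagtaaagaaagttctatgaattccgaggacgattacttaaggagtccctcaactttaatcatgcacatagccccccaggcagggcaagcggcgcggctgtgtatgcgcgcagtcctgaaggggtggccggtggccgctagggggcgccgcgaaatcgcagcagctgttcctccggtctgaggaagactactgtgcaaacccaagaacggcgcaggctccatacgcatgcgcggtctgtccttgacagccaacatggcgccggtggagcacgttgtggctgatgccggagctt
Ddx21: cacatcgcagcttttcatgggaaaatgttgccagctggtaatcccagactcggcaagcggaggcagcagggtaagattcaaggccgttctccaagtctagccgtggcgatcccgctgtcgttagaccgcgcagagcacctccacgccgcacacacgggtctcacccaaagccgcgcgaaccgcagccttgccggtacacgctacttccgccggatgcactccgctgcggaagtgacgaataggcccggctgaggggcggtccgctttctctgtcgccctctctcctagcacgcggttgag

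Of the matched members, 6 had several windows, and a match in any of them was counted. The E-box lay 60 bases before the start in Nop2, and 37, 24 and 17 bases after it in Pno1, Tsr1 and Wdr43. It was in the windows of 10 of 52 members (19.2%), 4 of 13 called and 6 of 39 not called, against 8.91% of 17492 protein-coding genes with a window. Of the 10, 6 were small-subunit genes, 3 large-subunit and 1 polymerase I. The ETS-type core CCGGAAG was in 21 of 52 members (40.4%), against 12.9% of genes, and GGAAGTG, which can overlap it by 5 bases, was in 21 (40.4%), against 13.6%. CACGCG, which cannot overlap CACGTG, was in 18 of 52 (34.6%), against 13.7%. Of the 13 called members 6 held CCGGAAG, 8 GGAAGTG and 4 CACGCG, and of the 39 not called 15, 13 and 14. The difference between called and other members was not tested for any motif.

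The GC box GGGCGG, which can overlap either ETS-type motif by 2 bases, was in 39 of 52 members (75%), against 49.2% of genes. It was in 10 of 13 called and 29 of 39 not called. TGACGTCA was in 3 of 52 (5.77%), against 2.54%, and GCCATGTT in 2 (3.85%), 1 of them Nob1, against 1.55%. TGACTCA was in 0 of 52, against 5.40% of genes. A longer YY1-type motif and a CGCG palindrome were each in 0 of 52, against 1.06% and 0.755% of genes. The windows of the members had a median GC content of 59.0% and those of all genes 56.3%. These are matches of letters in a window, and binding was not measured.

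RNA polymerase I transcribes the ribosomal genes with the help of the promoter factor Ubtf, the initiation factor Rrn3 and selectivity factor SL1. The subunits of SL1 include Taf1a to Taf1d. Polr1e, a subunit specific to polymerase I, had log2 signals of 0.27, 0.29, 0.66 and 0.46 on the furan arrays, against -0.17, -0.25, -0.43 and -0.55 on the vehicle arrays. It was the 1 member of the role past the threshold, at 1.70-fold (change 0.77 ± 0.13 SE, limma adjusted p = 0.0231). A further Polr1e probe changed by 0.83, with an adjusted p of 0.0362. The adjusted p-values of further probes come from a limma fit of all 33848 kept probes.

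Polr1a, the largest subunit, also had every furan array above every vehicle array but lay just outside the threshold, with a change of 0.49 ± 0.11 SE and a limma adjusted p of 0.0501. The initiation factor Rrn3 had a change of 0.41 and no overlap between groups (limma adjusted p = 0.0886). The core subunits Polr1b and Polr1c had changes of 0.14 and 0.20 with overlapping groups.

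The promoter factors did not pass. Ubtf, the upstream binding factor, had log2 signals of 8.67, 8.83, 8.99 and 8.44 on the furan arrays, against 8.68, 8.89, 8.52 and 8.97 on the vehicle arrays. Its change was -0.03 with a 95% interval of -0.38 to 0.32. A far dimmer Ubtf probe, with a mean level of 0.75 against 8.75, had a change of -0.48 (limma adjusted p = 0.0989). Averaging the 2 probes gave a change of -0.25, and which of them reports Ubtf better was not tested. Taf1a had log2 signals of -2.90, -3.25, -3.06 and -3.00 on the furan arrays, against -2.11, -3.10, -3.41 and -2.59 on the vehicle arrays, so the furan arrays lay within the vehicle range. Its change of -0.25 had an interval of -0.87 to 0.37. Taf1b, Taf1c and Taf1d had changes of -0.21, 0.24 and -0.052. For Taf1b the vehicle arrays ranged from -4.30 to -2.14, the highest being replicate 2, and without that array the Taf1b change was 0.25.

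The snoRNPs come in a C/D box class that guides ribose methylation and an H/ACA box class that guides pseudouridylation. Nop58, a core C/D protein, had log2 signals of 1.71, 1.84, 1.44 and 1.57 on the furan arrays, against 0.72, 0.68, 0.40 and 0.86 on the vehicle arrays. The groups did not overlap, and the change was 1.97-fold (0.98 ± 0.13 SE, limma adjusted p = 0.0136). Its partner Nop56 had a change of 0.49, also without overlap, but did not pass (limma adjusted p = 0.0783). Fbl, the methyltransferase of the same particle, had a change of 0.073 with an interval of -0.15 to 0.29.

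Of the H/ACA proteins, 2 of 4 passed. Nhp2 had log2 signals of 5.00, 4.97, 5.07 and 4.80 on the furan arrays, against 4.23, 4.36, 4.38 and 4.30 on the vehicle arrays. It rose 1.56-fold (0.64 ± 0.09 SE, limma adjusted p = 0.0150). Gar1 had log2 signals of 3.12, 2.98, 2.68 and 2.70 on the furan arrays, against 2.28, 2.16, 2.21 and 2.29 on the vehicle arrays, with furan replicates 41 and 42 the highest, and rose 1.55-fold (0.63 ± 0.12 SE, limma adjusted p = 0.0312).

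The pseudouridine synthase Dkc1 and the small scaffold protein Nop10 belong to the same particle and did not pass. Nop10 had log2 signals of 4.75, 4.58, 4.66 and 4.49 on the furan arrays, against 4.60, 4.69, 4.49 and 4.57 on the vehicle arrays, which overlapped. Its change was 0.03 with an interval of -0.18 to 0.24, and that of Dkc1 was 0.073 with an interval of -0.20 to 0.34. Nolc1, a snoRNP chaperone, had a change of 0.50 without overlap (limma adjusted p = 0.0574), while its dimmer probe had a change of 0.14.

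The small-subunit factors run from the first particle on the nascent transcript to the last cleavage in the cytoplasm. Nob1, the endonuclease that makes the mature end of the small-subunit rRNA, had log2 signals of 0.047, 0.063, -0.0025 and -0.14 on the furan arrays, against -0.81, -0.76, -1.07 and -0.82 on the vehicle arrays. It rose 1.81-fold (0.86 ± 0.10 SE), with a limma adjusted p of 0.00880, the lowest among the members. Its binding partner Pno1, 1 of the 4 called members with an E-box, had log2 signals of 4.20, 4.12, 4.23 and 4.06 on the furan arrays, against 3.62, 3.75, 3.65 and 3.58 on the vehicle arrays, and rose 1.42-fold (0.51 ± 0.083 SE, limma adjusted p = 0.0219).

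Bysl, which accompanies the precursor through the nucleus, had log2 signals of 3.37, 3.27, 3.34 and 3.33 on the furan arrays, against 2.53, 2.81, 2.74 and 2.62 on the vehicle arrays. The 4 furan values lay close together, and the change was 1.57-fold (0.65 ± 0.089 SE, limma adjusted p = 0.0136). Tsr1, a late factor that resembles a GTPase, had log2 signals of 0.90, 0.67, 0.62 and 0.69 on the furan arrays, against 0.025, 0.067, -0.24 and 0.051 on the vehicle arrays. It rose 1.68-fold (0.75 ± 0.11 SE, limma adjusted p = 0.0155), and its further probe changed by 0.72 with an adjusted p of 0.0231. The export factors Ltv1 and Rrp12 had changes of 0.45 and 0.53 and did not pass. For Ltv1 the groups did not overlap (limma adjusted p = 0.0519).

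Among the early factors, Wdr43, part of the group that joins the nascent transcript, had log2 signals of 2.10, 1.95, 1.86 and 1.64 on the furan arrays, against 0.99, 1.09, 1.11 and 1.42 on the vehicle arrays. It rose 1.67-fold (0.74 ± 0.13 SE, limma adjusted p = 0.0292), and its dimmer probe had a change of 0.59 (limma adjusted p = 0.0569). Wdr75 and Heatr1 of the same group had changes of 0.49 and 0.16 and did not pass. Rrp9, a protein of the U3 snoRNP, had log2 signals of 1.17, 1.28, 1.45 and 1.43 on the furan arrays, against 0.94, 1.40, 1.08 and 1.45 on the vehicle arrays. Those groups overlapped, and the change of 0.11 had an interval of -0.21 to 0.44. The other early members had changes of 0.41 (Ddx10, a helicase), 0.39 (Nop14), 0.38 (Noc4l), 0.33 (Imp4), 0.26 (Wdr36), 0.23 (Utp20) and 0.19 (Wdr3), none past the threshold.

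**Figure D3:**
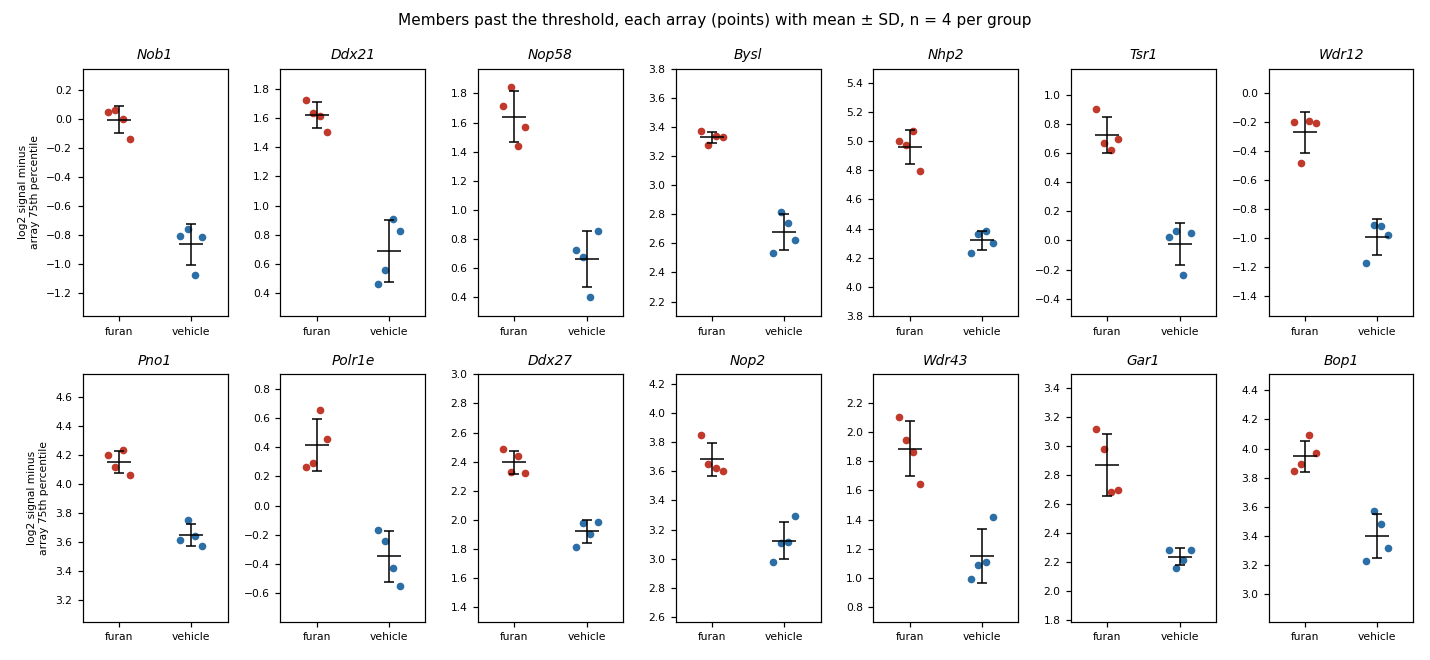
Log2 signal minus the array's 75th percentile for the 14 members past the threshold, in order of adjusted p, on each furan array (red, left) and each vehicle array (blue, right), with mean ± SD (n = 4 per group). Panels have axes of the same length but different positions. In each panel all furan arrays lie above all vehicle arrays.

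The large-subunit factors include the trimer of Pes1, Bop1 and Wdr12, which is needed to process the precursor of the large-subunit rRNAs. Wdr12 had log2 signals of -0.20, -0.48, -0.20 and -0.21 on the furan arrays, against -1.17, -0.91, -0.91 and -0.98 on the vehicle arrays. It rose 1.65-fold (0.72 ± 0.11 SE, limma adjusted p = 0.0166), although furan replicate 42 stood below the other furan arrays. Bop1 had log2 signals of 3.84, 3.89, 4.09 and 3.97 on the furan arrays, against 3.23, 3.57, 3.48 and 3.32 on the vehicle arrays, and rose 1.46-fold (0.55 ± 0.11 SE, limma adjusted p = 0.0343). Pes1 had a change of 0.31 with overlapping groups and an interval of -0.026 to 0.64.

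Nop2, a methyltransferase that modifies the large-subunit rRNA and whose window holds both marked motifs, had log2 signals of 3.85, 3.65, 3.62 and 3.60 on the furan arrays, against 2.98, 3.11, 3.12 and 3.29 on the vehicle arrays. It rose 1.47-fold (0.56 ± 0.10 SE, limma adjusted p = 0.0290). Ddx27, an RNA helicase, had log2 signals of 2.48, 2.33, 2.44 and 2.33 on the furan arrays, against 1.82, 1.98, 1.91 and 1.99 on the vehicle arrays, and rose 1.39-fold (0.47 ± 0.084 SE, limma adjusted p = 0.0267). The helicases Ddx18, Ddx51 and Ddx56 had changes of 0.29, 0.18 and 0.05 and did not pass. Nip7, which joins early precursors, had a change of 0.36 (limma adjusted p = 0.0949), while its dimmer probe had 0.55 (limma adjusted p = 0.0261).

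The remaining large-subunit members did not pass. Rrs1, which helps to bring in the small rRNA of that subunit, had a change of 0.61 with no overlap (limma adjusted p = 0.0732). Changes were 0.53 for Ppan, 0.49 for the export adaptor Nmd3, 0.47 for Rrp15, 0.43 and 0.30 for the nucleolar GTPases Gnl2 and Gnl3, and 0.40 for the stalk assembly factor Mrto4. They were 0.31 for Nop16, 0.19 for Noc2l, 0.15 for the late factor Sbds and 0.14 for Rrp1b. Rrp1 had log2 signals of 5.77, 5.63, 5.67 and 5.61 on the furan arrays, against 5.34, 5.52, 5.66 and 5.34 on the vehicle arrays, which overlapped at the top of the vehicle range (change 0.20, interval -0.032 to 0.44). Noc3l had log2 signals of 0.32, 0.46, -0.099 and 0.31 on the furan arrays, against 0.19, 0.25, 0.55 and 0.28 on the vehicle arrays, the 1 negative change of the role (-0.071, interval -0.40 to 0.26).

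Of the 3 nucleolar proteins that act at several steps, the helicase Ddx21 had log2 signals of 1.72, 1.64, 1.61 and 1.504 on the furan arrays, against 0.46, 0.56, 0.91 and 0.82 on the vehicle arrays. It rose 1.91-fold (0.93 ± 0.12 SE, limma adjusted p = 0.0122), but its dimmer probe had a change of 0.13 (limma adjusted p = 0.623), so the probes disagree. Npm1, the histone chaperone nucleophosmin, had log2 signals of 5.13, 4.85, 5.02 and 4.93 on the furan arrays, against 4.87, 5.06, 4.97 and 5.09 on the vehicle arrays. The change of the brightest of its 5 probes was -0.015 with an interval of -0.24 to 0.21, and 1 of the other 4 passed with 0.45 (limma adjusted p = 0.0359). Ncl, nucleolin, had a change of 0.27 with overlapping groups.

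**Figure D4:**
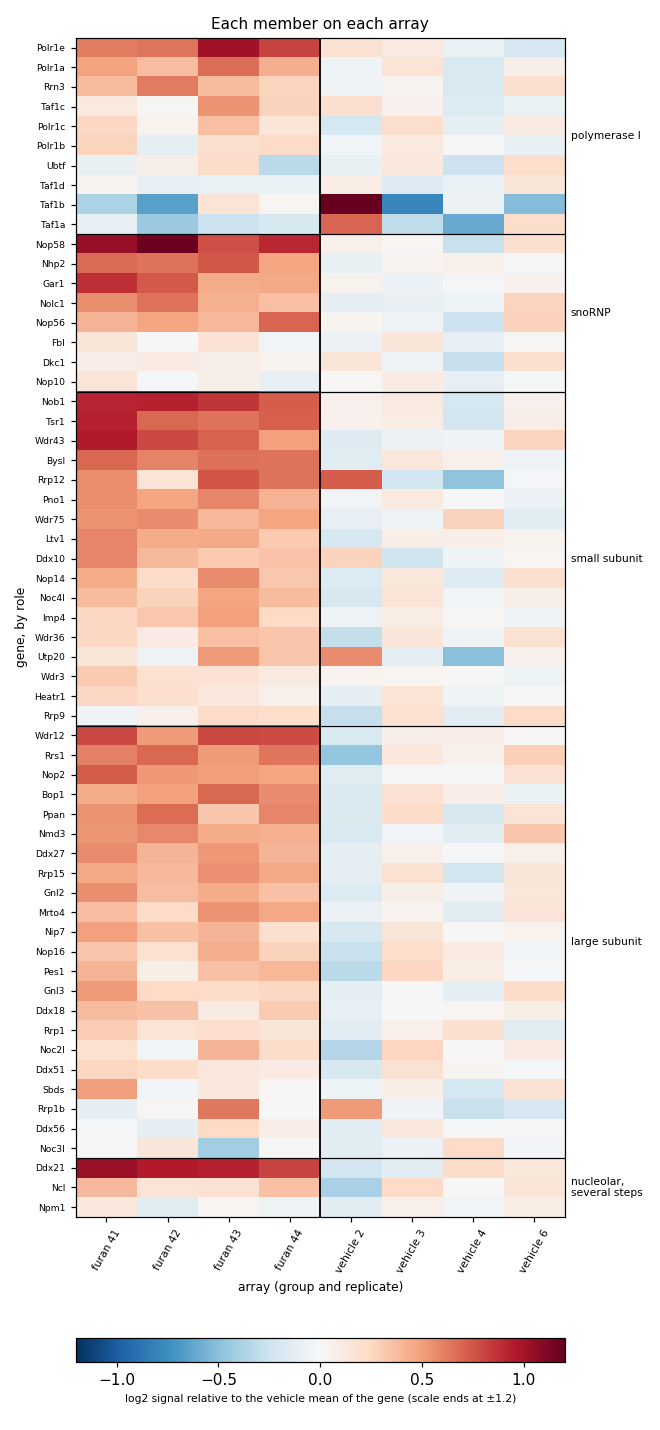
Log2 signal of each of the 60 members (down the page, by role) on each array (across, furan left of the line and vehicle right of it), relative to the gene's vehicle mean. Red is above that mean and blue below, and the scale ends at ±1.2. The Taf1a, Taf1b, Rrp12, Utp20 and Rrp1b cells of vehicle replicate 2 are red, while that array is pale blue for most large-subunit genes.

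All but 2 of the 14 calls were lost in at least 1 fit that left out 1 array. Only Nob1 and Ddx21 passed in all 8 fits that left out 1 array, and Nop58 passed in 7, Bysl in 6, Nhp2 and Tsr1 in 5 each, Wdr12 in 4 and Wdr43 in 3. Pno1 passed in 2, Polr1e, Gar1, Ddx27 and Nop2 in 1 each and Bop1 in 0. For Ddx21 this holds for the brighter probe, and its dimmer probe had a change of 0.13 with all 8 arrays. The number of members called was 2 without furan replicate 41, 5 without 42, 4 without 43 and 6 without 44. Of all features 0.57%, 0.75%, 0.59% and 0.758% were called higher in these fits, against 2.87% with all 8 arrays. The number of members was 14 without vehicle replicate 2 and 8 without each of vehicle replicates 3, 4 and 6. In these fits 2.42%, 1.18%, 0.871% and 0.855% of all features were called higher.

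Vehicle replicate 2 stood apart: 86.2% of its spots were well above background, against 55.8% to 69.4% on the furan arrays and 55.1% to 67.5% on the other vehicle arrays. It was the lowest vehicle array for 31 of the 60 members. Without it, 13 of the 14 members called were the same, with Bop1 lost and Rrs1 added.

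Each of the 4 slide columns held 1 furan and 1 vehicle array. With the column as a block limma called 0 members and 0 of all features (lowest adjusted p over all features 0.0714). In that fit 33 members were higher at an unadjusted p under 0.05, where 9.62% of all features were. Within columns, 36 of the 60 members were higher in furan livers in all 4 and a further 16 in 3, where 16.9% and 15.3% of all features were. The Nob1 difference ranged from 0.76 to 0.93 over the 4 columns and that of Ddx21 from 0.59 to 1.26. With the slide row as a block, 13 members were called, where 2.2% of all features were higher, and Bop1 was not (limma adjusted p = 0.0528). With quantile normalization 14 were called, 12 of them as reported, where 2.22% of all features were called higher. Gar1 (0.53, limma adjusted p = 0.0662) and Wdr12 (0.89, limma adjusted p = 0.0870) were then not called, while Ddx10 and Ltv1 were (limma adjusted p = 0.0439 and 0.0491). In the value table deposited by the authors, 24 members were called higher, where 4.45% of all features were, and they included all 14.

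**Figure D5:**
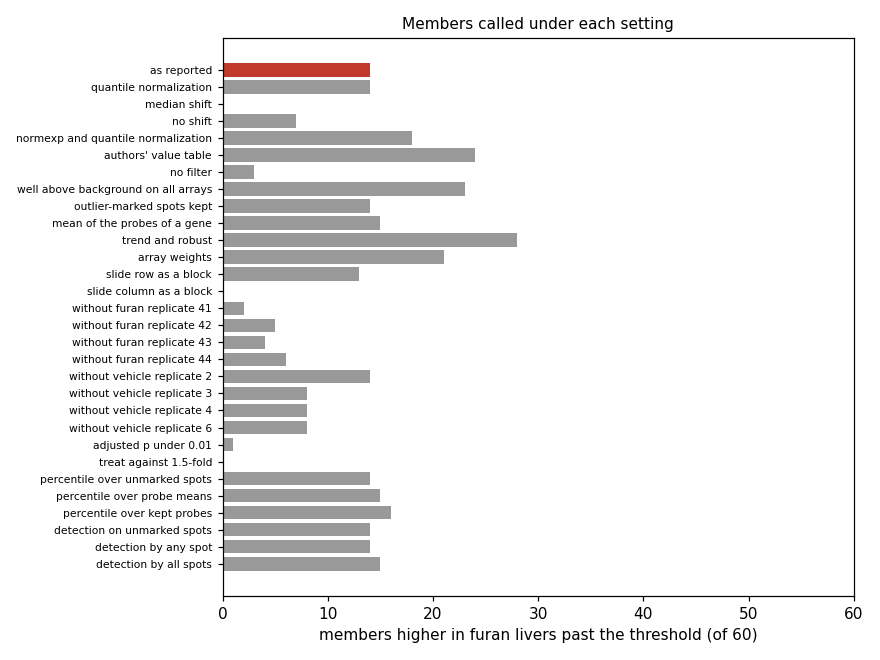
Number of the 60 members called higher in furan livers under each processing setting (bars, from 0), with the reported setting in red. The count was 14 as reported and ranged from 0, with a median shift, the slide column as a block or a test against 1.5-fold, to 28 with a trended and robust variance.

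Other genes of the pathway, 95 listed and 91 tested, had 9 called higher and 0 lower, where 2.87% and 1.31% of all features were. Their changes were positive for 75 genes, against 39.8% of all features, and had a median of 0.22, against -0.092. Among tested features with a gene symbol, 48.9% were positive and the median was -0.0091. At an unadjusted p under 0.05, 42 were higher and 2 lower, where 12.3% of all features were higher. The 9, with limma adjusted p from 0.0242 to 0.0472, were the small-subunit factors Utp23 (0.52) and Nol6 (0.52), the large-subunit factors Rpf2 (0.61), Mdn1 (0.66), Lsg1 (0.47), Brix1 (0.50) and Nifk (0.47), Nol9 (0.49) and the polymerase subunit Polr1d (0.42). Mdn1 is a large ATPase that remodels the large-subunit precursor, and Lsg1 is a GTPase of its last steps. The number called higher was 4 without vehicle replicate 2 and 0 in each of the other 7 fits that left out 1 array.

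Some marker genes moved with the groups. The summed signal of 8 measured proliferation genes, in units of each array's 75th percentile, was 22.3 to 32.0 on the furan arrays and 13.8 to 17.2 on the vehicle arrays. Bright genes weigh most in such a sum, here Mcm6 and Pcna, with levels of 2.22 to 3.88 and 2.66 to 3.28. Of the 8 genes, Ccna2 and Mcm6, a cyclin and a replication helicase subunit, rose by 1.23 and 1.06 in limma (adjusted p = 0.0419 and 0.0371). The list's median change was 1.14. The summed signal of 8 sinusoidal endothelium genes was 76.3 to 92.1 on the furan arrays and 92.3 to 112 on the vehicle arrays. Its brightest gene was Clec4g, with levels of 5.15 to 5.65. For 5 exocrine pancreas genes the sum was 7.72 to 11.03 on the furan arrays and 11.1 to 14.8 on the vehicle arrays. Most of that sum came from Amy2a5, with levels of 2.57 to 3.69, against -0.51 to 0.46 for the next brightest, Ctrb1. Cela1 had a positive change (0.44) and the other pancreas genes negative ones. In either list 0 genes were called. The 10 hepatocyte genes, which include albumin, summed to 5686 to 6292 on the furan arrays and 5405 to 7725 on the vehicle arrays. The lists for macrophages, stellate cells and fibroblasts, bile duct, lymphocytes and neutrophils had overlapping sums and 0 calls. The part of these cells and of proliferation in the members' changes was not tested.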

How the data were processed

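The scanner files give, per the file headers, a fluorescence intensity for each of 62976 spots, from 1 scan read by Feature Extraction 11.0.1.1, and a processed intensity after background subtraction. The authors also deposited a value table in log2 units, by a method not given in the sources used here. The log2 processed intensity of 59305 non-control spots was shifted by the 75th percentile of its array. Spots marked as outliers were left out, and spots of a probe were averaged. A probe was kept where at least 50% of its spots were well above background on at least 4 arrays, which left 33848 of 55681. RefSeq accessions gave symbols through a table for GRCm38.p6. Probe positions on the array are annotated on another build and were not used.

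The main test was limma 3.58.1 (lmFit and eBayes, R 4.3.3), taken as 2-sided and adjusted by Benjamini-Hochberg over 24921 features. No block entered the fit: the labels name randomized blocks but not their members. The members, their roles and the other lists were chosen with earlier results of these data known, and the basis of the percentile and the detection rule were set by comparison with an earlier count. Every called member is given on each array, as are the member of highest mean signal and that of lowest change in each role. Normexp used an offset of 50 on median spot intensity. The 4 arrays per group limit the precision. Plots used matplotlib 3.10.9.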

Additional observations from a re-analysis of the deposited data

Results flagged for a closer look

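Of 120 sets of 4 arrays, 60 members in each group, 8 had an array whose gap to the nearest other array was above Dixon's 95% critical share of the range, and chance gives about 1 in 20. Among furan arrays, replicate 41 was high for Taf1d (-0.77) and Gnl3 (2.07), replicate 42 was low for Wdr12 (-0.48) and replicate 43 was high for Rrp1b (-0.71). Among vehicle arrays, replicate 6 was high for Nolc1 (2.04), replicate 4 was high for Wdr75 (1.21) and low for Tsr1 (-0.24), and replicate 2 was low for Ltv1 (2.12). Wdr12 and Tsr1 were called, and the others were not. Wdr75 passed without vehicle replicate 4.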

How the results depend on the processing

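Counts are given as members higher, all features higher, all features lower and other pathway genes higher, which were 14, 714, 327 and 9 as reported, and 0 members were lower in any setting run. They were 0, 85, 1 and 0 with a median shift. With no shift they were 7, 230, 31 and 0. They were 24, 1109, 559 and 15 with the authors' value table. With no filter on dim probes they were 3, 124, 39 and 0. They were 23, 1155, 578 and 19 with a filter on all 8 arrays. With trended and robust variance they were 28, 1437, 564 and 25. They were 21, 1240, 803 and 21 with array weights. With the slide column as a block they were 0, 0, 0 and 0. They were 1, 82, 19 and 0 with an adjusted p under 0.01. With a test against 1.5-fold they were 0, 20, 2 and 0. Leaving out 1 array gave 2 to 14 members, 142 to 603 and 48 to 324 features and 0 to 4 other pathway genes. Of the other pathway genes, 2 were higher with quantile normalization and 5 with the slide row as a block, and 1 was lower with quantile normalization, normexp, the authors' table, array weights or the percentile over kept probes. Quantile normalization kept 12 of the 14 called members and added 2. Normexp with quantile normalization called 502 features lower.

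The percentile and the detection rule were set after the data were seen, by comparing several versions with an earlier count for these data, 1041 features called. Taking the percentile over spots not marked as outliers, over probe means or over kept probes gave 14, 15 and 16 members. Of all features 2.78%, 2.8% and 2.6% were then higher, and 624 features were lower with the kept probes. Detection on unmarked spots, by any spot or by all spots gave 14, 14 and 15 members, where 2.87%, 2.86% and 2.87% of all features were higher. The members' median change was 0.86 with a median shift and 0.50 without a shift. The cause of these differences was not tested, apart from the stricter threshold, which acts by its construction. Fits that left out 1 array called 2 members without furan replicate 41 and 14 without vehicle replicate 2. The part of the number of arrays and that of the array left out were not tested.

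Of 1739 values of single members under the alternatives, 52 had the opposite sign, none of them of a called member. Ubtf had 0.45 (median shift), 0.096 (no shift), 0.0052 (normexp and quantile normalization), 0.0026 (percentile over probe means), and -0.12 to 0.066 with 1 array left out, against -0.030 as reported. Taf1a had 0.25 (quantile normalization), 0.23 (median shift), 0.035 (normexp and quantile normalization), 0.062 (authors' value table), against -0.25 as reported. Taf1b had 0.38 (quantile normalization), 0.27 (median shift), 0.12 (normexp and quantile normalization), 0.11 (authors' value table), 0.13 (array weights), and -0.47 to 0.25 with 1 array left out, against -0.21 as reported. Taf1d had 0.055 (quantile normalization), 0.43 (median shift), 0.074 (no shift), 0.040 (normexp and quantile normalization), 0.047 (authors' value table), against -0.052 as reported. Fbl had -0.032 (quantile normalization), -0.036 (normexp and quantile normalization), -0.0039 (percentile over kept probes), against 0.073 as reported. Dkc1 had -0.0043 (percentile over kept probes), and -0.020 to 0.14 with 1 array left out, against 0.073 as reported. Nop10 had -0.092 (quantile normalization), -0.083 (normexp and quantile normalization), -0.065 (authors' value table), -0.047 (percentile over kept probes), and -0.013 to 0.072 with 1 array left out, against 0.030 as reported. Rrp1b had -0.030 to 0.30 with 1 array left out, against 0.14 as reported. Noc3l had 0.41 (median shift), 0.056 (no shift), and -0.14 to 0.045 with 1 array left out, against -0.071 as reported. Ddx56 had -0.046 (quantile normalization), -0.065 (normexp and quantile normalization), -0.033 (authors' value table), -0.00094 (array weights), -0.027 (percentile over kept probes), and -0.014 to 0.10 with 1 array left out, against 0.050 as reported. Npm1 had 0.47 (median shift), 0.11 (no shift), 0.14 (mean of the probes of a gene), 0.018 (percentile over probe means), and -0.063 to 0.028 with 1 array left out, against -0.015 as reported.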
